A study of Homo sapiens with 15 samples.

Results

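Plasminogen activation in senescent and young fibroblasts was followed through 5 genes, chosen by name: the activators PLAU and PLAT, the receptor PLAUR and the serpins SERPINE2 and SERPINB2. They are 5 of the 57272 genes in the table of counts, and all 5 were among the 15799 genes that passed the filter on low counts. They were picked by name with earlier results of these data known, and each is reported in every condition. Their counts per library ran from 168 to 2139 for SERPINB2, from 1910 to 4280 for PLAUR and from 3667 to 25004 for PLAT. SERPINE2 had 4776 to 13261 counts and PLAU 14923 to 41915.

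The plasminogen activators are serine proteases that cut the circulating zymogen plasminogen into plasmin, a broad protease that dissolves fibrin and helps to degrade the matrix around cells. PLAU encodes urokinase (uPA), which acts mainly at cell surfaces, where PLAUR encodes its anchored receptor (uPAR), and PLAT encodes tissue plasminogen activator (tPA), whose action is strongly enhanced by fibrin. SERPINE2 encodes protease nexin 1, a secreted inhibitor of thrombin, urokinase and tPA, and SERPINB2 encodes PAI-2, an inhibitor of both activators that is kept largely inside cells. Several of these proteins are secreted by senescent fibroblasts as components of the senescence-associated secretory phenotype.

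All libraries came from MRC-5 cells, a line of human fetal lung fibroblasts, grown at 5% oxygen in 5 conditions of 3 libraries each. Young cells at population doubling (PD) 30 carried either the empty lentiviral vector pWPIR-GFP or the same vector expressing TRF2, the telomere-binding protein encoded by TERF2, and both received a control siRNA. The last group of young cells, also at PD 30, received siLMNB1, an siRNA against the nuclear lamina gene LMNB1, and the column names give it the empty vector. Senescent cells were infected before they stopped dividing, with the empty vector or with TRF2, received the control siRNA, and were collected on the growth plateau, at PD 71 with the empty vector and at PD 75 with TRF2. TRF2 and the 4 further doublings therefore cannot be told apart in senescent cells. The paper states that young cells expressed TRF2 for days before collection, and that senescent cells carried it over many doublings. State and the length of TRF2 expression therefore cannot be told apart where senescent and young TRF2 cells are compared. The study describes its counts of young and senescent cells as coming from biological replicates. The labels do not say whether the 3 libraries of a condition were separate cultures. P-values rest on the spread between libraries of a condition, estimated for each gene jointly over all 5 conditions. That estimate was shared although the spread of some genes, such as PLAU, differed between conditions.

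Libraries held 26725885 to 43116046 counts. The targeted genes followed the labels. LMNB1 was at 2.36 to 2.91 CPM (counts-per-million after TMM scaling) with siLMNB1 against 58.6 to 61.0 in young empty-vector cells, and TERF2 was at 128 to 307 CPM in the TRF2 libraries of young cells and at 209.9 to 285 in those of senescent cells, against 21.9 to 26.0 in the other libraries. LMNB1 was also low in senescent cells, at 4.60 to 5.65 CPM with the empty vector and 2.68 to 3.69 CPM with TRF2. All 8 fibroblast markers were above 1 CPM in every library. Of the leukocyte markers, the T cell gene CD3E had no count, and PTPRC and CD68 had at most 0.0879 and 0.237 CPM. CD14 reached 3.50 CPM. The summed leukocyte markers were higher in senescent libraries, at 1.44 to 3.50 CPM, than in young ones, at 0.0294 to 0.505 CPM. Summed markers of epithelial, endothelial and leukocyte cells reached at most 11.0, 4.15 and 3.50 CPM, against 22353 to 38978 CPM for the fibroblast markers. The summed level of 4 markers of dividing cells fell with state, from 406 to 434 CPM in young empty-vector cells to 52.2 to 63.2 in senescent cells with it and 29.9 to 34.6 in senescent TRF2 cells. It was also lower in young cells with siLMNB1, at 199.98 to 206 CPM, while young TRF2 cells held 339 to 424 CPM. The part of this sum in the results was not tested. According to their labels, the 6 senescent libraries were reanalysed from data deposited before, so deposit and state cannot be told apart. They also showed a steeper dependence of counts on GC content, with slopes of 0.460 to 0.823 log2 units per 10 points of GC against -0.0063 to 0.134 in the young libraries. Replicate 3 of the senescent empty-vector cells had the steepest slope, while the other 5 senescent libraries lay between 0.460 and 0.506. For the 5 genes, values without it stand beside the calls it changed and the differences it moved most.

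Urokinase had the highest group mean of the 5 genes per exon length in each of the 5 conditions. PLAU (ENSG00000122861.16, chr10:73909177-73917496, plus strand, GRCh38) was present at 228 ± 7.94 RPKM (SD, n = 3; RPKM are CPM divided by the annotated exon length in kilobases) in young empty-vector cells. PLAU was at 646, 678 and 692 CPM in these 3 libraries, at 865, 833 and 772 CPM in young TRF2 cells and at 528, 561 and 526 CPM with siLMNB1. In senescent cells, PLAU was at 578, 1029.7 and 1358 CPM with the empty vector and at 476, 508 and 475 CPM with TRF2. The senescent libraries with the empty vector were thus widely spread, with a coefficient of variation of 39.6%, against 3.48% in young cells. One of them lay below every young library with the same vector and the other 2 above.

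PLAU rose in senescent empty-vector cells by 0.56 ± 0.19 on the log2 scale (adjusted p = 0.018 by the quasi-likelihood test of edgeR with Benjamini-Hochberg correction, as for all adjusted p below), but this call rested on replicate 3. Without that library the difference was 0.24 (adjusted p = 0.15), without replicate 1 it was 0.82 (adjusted p = 2.1e-06), and offsets for length and GC content gave 0.32 (adjusted p = 0.064). It was also lost without replicate 1 of the young empty-vector cells, at 0.52 (adjusted p = 0.056). Between the TRF2 groups PLAU fell by 0.76 (SE 0.19, adjusted p = 0.0027), from 823 ± 47.1 to 486 ± 18.9 CPM (SD, n = 3), and the 2 groups did not overlap. In senescent cells TRF2 was accompanied by a PLAU level 1.02 lower on the log2 scale than the empty vector (SE 0.19, adjusted p = 0.0034), or 0.72 lower without replicate 3 of the empty vector (adjusted p = 0.0027), and the highest TRF2 library lay below the lowest library with the empty vector. Differences in young cells did not pass the test, at 0.29 with TRF2 (95% interval -0.11 to 0.69, adjusted p = 0.67) and -0.32 with siLMNB1 (-0.72 to 0.08, adjusted p = 0.21), although neither group overlapped the control. With only the libraries compared, both passed (adjusted p = 0.019 with TRF2 and 4.6e-07 with siLMNB1). The siLMNB1 difference also passed with the offsets (adjusted p = 0.028) and without the filter on low counts (0.017). Of the exonic bases of PLAU, 31.0% are shared with the antisense gene C10orf55, and the strand setting of the counting is not given in the sources used here. C10orf55 held at most 63 counts in any library.

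PLAT moved in opposite directions in senescent cells and in young cells depleted of lamin B1. PLAT (ENSG00000104368.18, chr8:42174718-42207709, minus strand) was at 317, 334 and 333 CPM in young empty-vector cells, at 460.4, 406 and 442 CPM with TRF2 and at 120.2, 133 and 127 CPM with siLMNB1. Senescent cells held 680.1, 765 and 810.1 CPM of PLAT with the empty vector and 612, 565 and 643 CPM with TRF2. No group overlapped its neighbour in this order, from senescent empty-vector cells through senescent TRF2, young TRF2 and young empty-vector cells down to siLMNB1. Per length, PLAT ran from 16.3 ± 0.832 RPKM with siLMNB1 through 42.2 ± 1.21 in young empty-vector cells to 96.7 ± 8.49 in senescent cells with it (SD, n = 3).

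PLAT rose 2.29-fold in senescent empty-vector cells (log2 1.20 ± 0.09, adjusted p = 6.1e-09) and by 0.48 ± 0.08 between the TRF2 groups (adjusted p = 1.5e-04). With siLMNB1, PLAT fell by 1.37 on the log2 scale (SE 0.09, adjusted p = 2.3e-08), that is 2.59-fold. These 3 calls kept their direction and their side of the threshold under all 12 alternatives, with ranges of 1.12 to 1.26, 0.42 to 0.52 and -1.45 to -1.34. In young cells with TRF2 the difference was 0.41 (0.23 to 0.59, adjusted p = 0.075). In senescent cells PLAT was 0.31 lower with TRF2 than with the empty vector (SE 0.09, adjusted p = 0.028). That call did not survive the omission of 1 library in 3 of 6 cases, namely replicate 2 of the empty vector (adjusted p = 0.061), replicate 1 of TRF2 (0.090) and replicate 2 of TRF2 (0.14), and also without the filter on low counts (0.052).

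**Figure D1:**
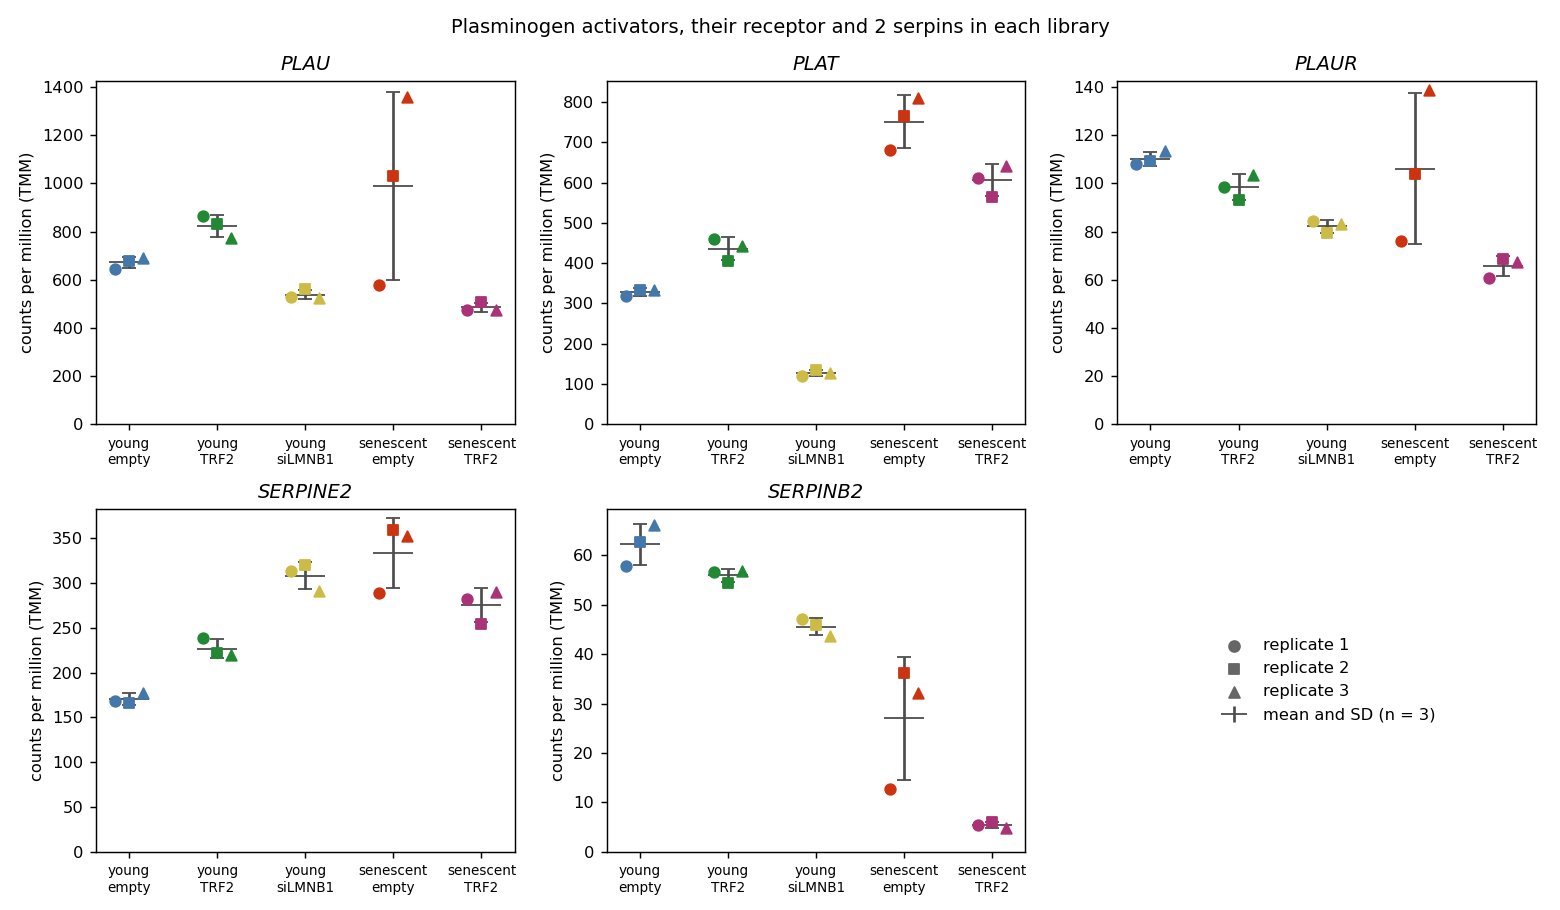
Level of each gene in every library, in CPM after TMM normalization, on linear axes that start at 0. Each point is 1 library, its shape gives the replicate, and lines and bars give the mean and SD of 3 libraries. PLAT lies lowest with siLMNB1 (120.2 to 133) and highest in senescent empty-vector cells (680.1 to 810.1), SERPINB2 lies lowest in senescent TRF2 cells (4.82 to 6.08), and the libraries of senescent empty-vector cells are the most spread for PLAU, PLAUR and SERPINB2.

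The urokinase receptor was lower with siLMNB1 and in senescent TRF2 cells, and its level in senescent empty-vector cells did not pass the test. PLAUR (ENSG00000011422.12, chr19:43646095-43670547, minus strand) was at 108, 109 and 114 CPM in young empty-vector cells, at 98.6, 93.1 and 104 CPM with TRF2 and at 84.3, 79.2 and 83.1 CPM with siLMNB1. In senescent cells PLAUR was at 75.9, 104 and 139 CPM with the empty vector and at 60.9, 68.7 and 67.4 CPM with TRF2. As for PLAU, the senescent empty-vector cells spanned the young range on both sides, in the same order of libraries. Senescent TRF2 libraries lay below every other library.

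Between senescent and young empty-vector cells PLAUR differed by -0.06 (95% interval -0.36 to 0.25, adjusted p = 0.75). The difference took the opposite sign without replicate 1 of the senescent cells (0.13, adjusted p = 0.29), and without replicate 3 it passed the threshold as a decrease (-0.31, adjusted p = 0.0090). PLAUR fell by 0.58 between the TRF2 groups (SE 0.15, adjusted p = 0.0026), a call kept under all 12 alternatives. In senescent cells it was 0.69 lower with TRF2 than with the empty vector (SE 0.15, adjusted p = 0.0071), and 0.45 lower without replicate 3 of the empty vector (adjusted p = 0.0056). SiLMNB1 was accompanied by a decrease of 0.42 (SE 0.15, adjusted p = 0.035), and the groups did not overlap. The decrease no longer passed when any 1 of the 6 libraries was left out (adjusted p of 0.071 to 0.10). It passed in every other alternative fit, from adjusted p = 7.1e-08 with only the libraries compared to 0.025 with the replicate block. TRF2 in young cells gave a difference of -0.16 (-0.47 to 0.14, adjusted p = 0.80).

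Protease nexin 1 was higher in each of the 4 other conditions than in young empty-vector cells, although the difference with TRF2 in young cells did not pass the test. SERPINE2 (ENSG00000135919.13, chr2:223975045-224039318, minus strand) was at 168, 166 and 178 CPM in young empty-vector cells, at 239, 222 and 219 CPM with TRF2 and at 314, 319.9 and 291 CPM with siLMNB1. Senescent cells held 289, 359 and 353 CPM of SERPINE2 with the empty vector and 283, 255 and 290.4 CPM with TRF2. No library of the other conditions fell within the range of the young empty-vector cells, while siLMNB1 and senescent empty-vector cells overlapped.

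SERPINE2 rose 1.95-fold in senescent empty-vector cells (log2 0.97 ± 0.09, adjusted p = 1.4e-07) and 1.81-fold with siLMNB1 (log2 0.85 ± 0.09, adjusted p = 3.7e-06), and both calls held under all 12 alternatives. These 2 comparisons share their 3 control libraries. Between the TRF2 groups SERPINE2 rose by 0.28 ± 0.09 (adjusted p = 0.013), a call lost without replicate 3 of young TRF2 (0.26, adjusted p = 0.052) or of senescent TRF2 (0.24, adjusted p = 0.062). The difference between TRF2 and the empty vector was 0.41 in young cells (0.22 to 0.60, adjusted p = 0.10) and -0.27 in senescent cells (-0.47 to -0.08, adjusted p = 0.061).

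PAI-2 was the member that fell furthest in senescence. SERPINB2 (ENSG00000197632.9, chr18:63871692-63903888, plus strand) was at 57.9, 62.8 and 66.1 CPM in young empty-vector cells, at 56.6, 54.5 and 56.8 CPM with TRF2 and at 47.1, 46.0 and 43.6 CPM with siLMNB1. Senescent cells with the empty vector held 12.8, 36.1 and 32.1 CPM of SERPINB2, and senescent TRF2 cells 5.35, 6.08 and 4.82 CPM. No group overlapped its neighbour in the order from young empty-vector cells to senescent TRF2 cells. Within senescent empty-vector cells, replicate 1 was the lowest library for all 5 genes.

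SERPINB2 fell 2.30-fold in senescent empty-vector cells (log2 -1.20 ± 0.24, adjusted p = 3.2e-04) and 10.3-fold between the TRF2 groups (log2 -3.37 ± 0.26, adjusted p = 1.7e-08). The first difference was -0.76 with offsets for length and GC content (adjusted p = 0.0075) and -0.88 without replicate 1 (adjusted p = 1.1e-06), while without replicate 3 it was -1.37 (adjusted p = 5.5e-05). With the same offsets the second was -2.89. In senescent cells SERPINB2 was 4.99-fold lower with TRF2 than with the empty vector (log2 -2.32 ± 0.26, adjusted p = 1.0e-04), a comparison within the reanalysed deposit, in which the size stayed between 2.05 and 2.65 lower under the 12 alternatives. Young cells gave differences of -0.15 with TRF2 (-0.64 to 0.33, adjusted p = 0.91) and -0.45 with siLMNB1 (-0.94 to 0.04, adjusted p = 0.15). The siLMNB1 difference passed with only the libraries compared (adjusted p = 6.1e-07) and without the filter on low counts (0.0028). The annotation places 20.0% of the exonic bases of SERPINB2 in another gene on the same strand, ENSG00000289724, so reads on those bases could belong to either.

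PLAU, PLAUR and SERPINB2 were the 3 members lower in senescent than in young cells when both expressed TRF2, and their promoters are shown for that reason. Sequences are from RefSeq on GRCh38.p14, read 5′ to 3′ on the strand of the gene over 300 bases around a start site. Capitals mark matches on either strand to the AP-1 letters TGANTCA, the Sp1 letters GGGCGG or the TATA box letters TATAAA, and the CRE letters TGACGTCA had no match in these windows. PLAU has a pair of windows in this table, of which the one with matches is printed (chr10:73910882-73911181, plus strand). It holds 3 Sp1 matches, whose first bases lie at -66, -51 and -40 from the start site, and PLAUR (chr19:43670120-43670419, minus strand) holds 1 AP-1 match at -186. SERPINB2 (chr18:63887455-63887754, plus strand) holds an AP-1 match at -102 and a TATA box match at -30. The windows of SERPINE2, which was higher in that comparison, are not printed, and each of them also has Sp1 matches, at -50 and at -230 and -183. Of all 35116 promoter windows in the table, 7.71% have an AP-1 match, 45.0% an Sp1 match, 11.5% a TATA box match and 1.85% a CRE match. No pair of matches overlaps in these windows, and a match is a description of letters, not of a bound site.
PLAU: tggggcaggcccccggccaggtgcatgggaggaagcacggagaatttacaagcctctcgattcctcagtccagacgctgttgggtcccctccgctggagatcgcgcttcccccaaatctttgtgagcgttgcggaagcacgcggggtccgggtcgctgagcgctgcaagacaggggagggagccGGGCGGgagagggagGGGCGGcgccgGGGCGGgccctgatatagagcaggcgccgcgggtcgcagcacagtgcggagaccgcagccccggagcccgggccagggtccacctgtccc
PLAUR: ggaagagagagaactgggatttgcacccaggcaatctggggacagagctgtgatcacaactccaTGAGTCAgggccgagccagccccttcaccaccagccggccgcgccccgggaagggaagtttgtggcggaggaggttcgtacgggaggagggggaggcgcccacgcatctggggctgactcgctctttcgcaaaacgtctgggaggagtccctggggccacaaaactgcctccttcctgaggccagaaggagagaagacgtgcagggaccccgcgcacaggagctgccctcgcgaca
SERPINB2: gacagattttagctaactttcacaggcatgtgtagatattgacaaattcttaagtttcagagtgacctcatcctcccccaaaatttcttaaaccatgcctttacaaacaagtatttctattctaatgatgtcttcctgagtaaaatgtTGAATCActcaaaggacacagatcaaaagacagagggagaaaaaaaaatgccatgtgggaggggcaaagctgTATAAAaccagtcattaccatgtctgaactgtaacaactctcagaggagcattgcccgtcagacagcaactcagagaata

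Counted together, senescence with the empty vector was accompanied by higher PLAU, PLAT and SERPINE2 and lower SERPINB2. Of the 5 genes, 3 passed as higher and 1 as lower, against 32.7% of all genes tested called higher and 31.9% called lower, so that a change in this comparison was common to most genes. Without replicate 3 of the senescent cells the counts were 2 higher and 2 lower. PLAT and SERPINB2 also reached the cutoff of 1 on the log2 scale that the study used for senescent cells. As these are bulk libraries, fewer cells that express a gene and less RNA of it per cell cannot be told apart.

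When both states carried TRF2, the 5 genes divided into PLAT and SERPINE2, which were higher, and PLAU, PLAUR and SERPINB2, which were lower. The shares of all genes called in this comparison were 28.2% higher and 30.1% lower, and the split of 2 and 3 held under DESeq2, without the filter, with the offsets and with only the libraries compared. Only SERPINB2 reached a log2 change of 1. PLAU was higher in the comparison with the empty vector and lower in this one.

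Depletion of lamin B1 in young cells was accompanied by lower PLAT and PLAUR and higher SERPINE2, that is 2 genes lower and 1 higher. Over all genes, 16.1% were called lower and 16.4% higher. PLAT and SERPINE2 reached the cutoff of 0.58 on the log2 scale that the study used for siLMNB1. Without a filter on low counts, and with only the libraries compared, all 5 genes passed the threshold, 4 as lower. When any 1 of the 6 libraries was left out, 1 gene was higher and 1 lower, as PLAUR no longer passed (adjusted p of 0.071 to 0.10).

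TRF2 in young cells gave no call among the 5 genes by the quasi-likelihood test of edgeR, where 0.152% of all genes were called higher and 0.0253% lower. At an unadjusted p under 0.05, 2 of them were higher, PLAT and SERPINE2, and DESeq2 also called these 2 higher (0.39 in both, adjusted p = 0.0019 and 0.0062). With only the libraries compared, PLAU, PLAT and SERPINE2 were called higher in edgeR (adjusted p = 0.019, 0.0030 and 0.0028). For these genes the young TRF2 libraries all lay above those with the empty vector, and for PLAUR and SERPINB2 all lay below. The share of all genes without overlap was not computed.

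TRF2 in senescent cells was accompanied by lower PLAU, PLAT, PLAUR and SERPINB2. These 4 calls stand against 6.41% of all genes called lower and 4.87% called higher, with 0 of the 5 called higher, also at an unadjusted p under 0.05 and by DESeq2. All 5 differences were negative, and DESeq2 and the offsets for GC content and length each called all 5 lower. With only the 6 libraries compared, none of the 5 passed in edgeR (adjusted p of 0.066 for SERPINB2 to 0.32 for SERPINE2, with 4 of the 5 at an unadjusted p under 0.05), and 2 genes in all were called in that fit, against 1782 in the model of all libraries.

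**Figure D2:**
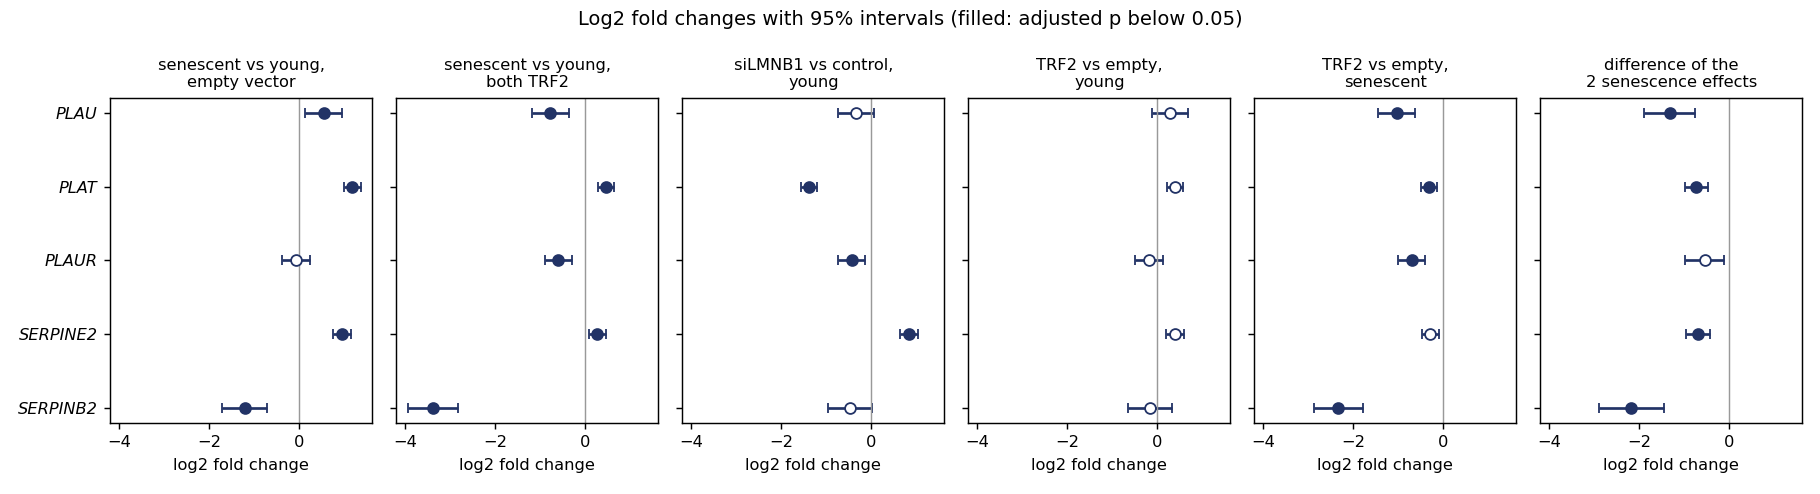
Log2 fold change of each gene in the 5 comparisons and, at the right, the difference between the senescence effect with TRF2 and with the empty vector. Points are estimates from edgeR, bars are 95% intervals, and filled points have an adjusted p below 0.05. All 5 differences are negative for TRF2 in senescent cells, from -0.27 for SERPINE2 to -2.32 for SERPINB2, whereas PLAT and SERPINE2 move in opposite directions with siLMNB1 (-1.37 and 0.85).

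The change from young to senescent cells differed between TRF2 and the empty vector for 4 of the 5 genes. The TRF2 groups also differed in how long TRF2 had been expressed, which cannot be told apart from state here. This was tested as the interaction of state and vector, that is the log2 change with senescence in TRF2 cells minus that in cells with the empty vector. It was -1.32 ± 0.27 for PLAU (adjusted p = 0.032), -0.72 ± 0.12 for PLAT (adjusted p = 0.017), -0.68 ± 0.13 for SERPINE2 (adjusted p = 0.024) and -2.17 ± 0.34 for SERPINB2 (adjusted p = 0.017). For PLAUR it was -0.53 (95% interval -0.97 to -0.09, adjusted p = 0.22). Over all genes tested, 0.956% were called lower in this contrast and 0.177% higher. The interval of each of the 4 genes lay below 0, and the 4 calls remained without replicate 3 of the senescent empty-vector cells (adjusted p of 0.0034 to 0.0093). Leaving out other libraries moved them across the threshold. Of the 12 fits with 1 library left out, the call was lost in 10 for PLAU, in 5 for PLAT, in 5 for SERPINE2 and in 3 for SERPINB2, with adjusted p no higher than 0.099. Without replicate 3 of the senescent empty-vector cells the value was -1.001 for PLAU and -0.27 for PLAUR (adjusted p = 0.31). With only the libraries compared, all 4 calls were lost (adjusted p of 0.053 for PLAT and SERPINB2, 0.066 for SERPINE2 and 0.079 for PLAU), and 8 genes in all were called in place of 179.

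The balance between activators and inhibitors was also read within each library, as a ratio of 2 genes per kilobase of exons. Such a ratio needs no scaling for depth between libraries. It was not corrected for the dependence of counts on GC content, which was steeper in the senescent libraries. Exons held 42.2% GC in SERPINB2, 44.7% in SERPINE2, 48.3% in PLAT, 52.7% in PLAUR and 53.7% in PLAU. The log2 ratio of PLAU to PLAT was 2.42, 2.42 and 2.45 in young empty-vector cells, and 3.53, 3.47 and 3.45 with siLMNB1. It was 1.16, 1.83 and 2.14 in senescent empty-vector cells and 1.03, 1.24 and 0.96 with TRF2. By this length the level of PLAU exceeded that of PLAT in every library, from 1.95 times in a senescent TRF2 library to 11.6 times in an siLMNB1 library. With the length of the longest transcript the ratio was 0.962 to 1.17 in senescent TRF2 cells, where 1 library fell below 1, and 5.39 to 5.72 with siLMNB1. Both senescent groups lay below all young libraries.

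Relative to tPA, protease nexin 1 transcripts lay higher with siLMNB1 than in the other conditions. The log2 ratio of SERPINE2 to PLAT was -1.12, -1.22 and -1.11 in young empty-vector cells and 1.18, 1.06 and 0.99 with siLMNB1. In senescent cells it was -1.44, -1.29 and -1.40 with the empty vector and -1.32, -1.35 and -1.35 with TRF2, below all young libraries. PLAT and SERPINE2 rose together in senescence, so their ratio moved by less than either gene, from -1.15 ± 0.06 to -1.38 ± 0.08 (mean and SD of the log2 ratio, n = 3). With offsets for length and GC content the rises with the empty vector lay closer, at 1.19 for PLAT and 1.10 for SERPINE2. Without offsets they were 1.20 and 0.97.

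The ratio of each inhibitor to urokinase separated the serpins. SERPINE2 to PLAU was -3.58 ± 0.05 on the log2 scale in young empty-vector cells, -2.41 ± 0.05 with siLMNB1 and -2.42 ± 0.16 in senescent TRF2 cells (SD, n = 3), and the last pair of groups overlapped. In senescent empty-vector cells SERPINE2 to PLAU was -2.60, -3.12 and -3.55, so the libraries ran from below the siLMNB1 range into the range of the young empty-vector cells. SERPINB2 to PLAU was -3.33 ± 0.05 in young empty-vector cells and -6.39 ± 0.12 in senescent TRF2 cells. PLAU to PLAUR varied least, between 3.18 and 3.91 over all 15 libraries. No test was run on these ratios.

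**Figure D3:**
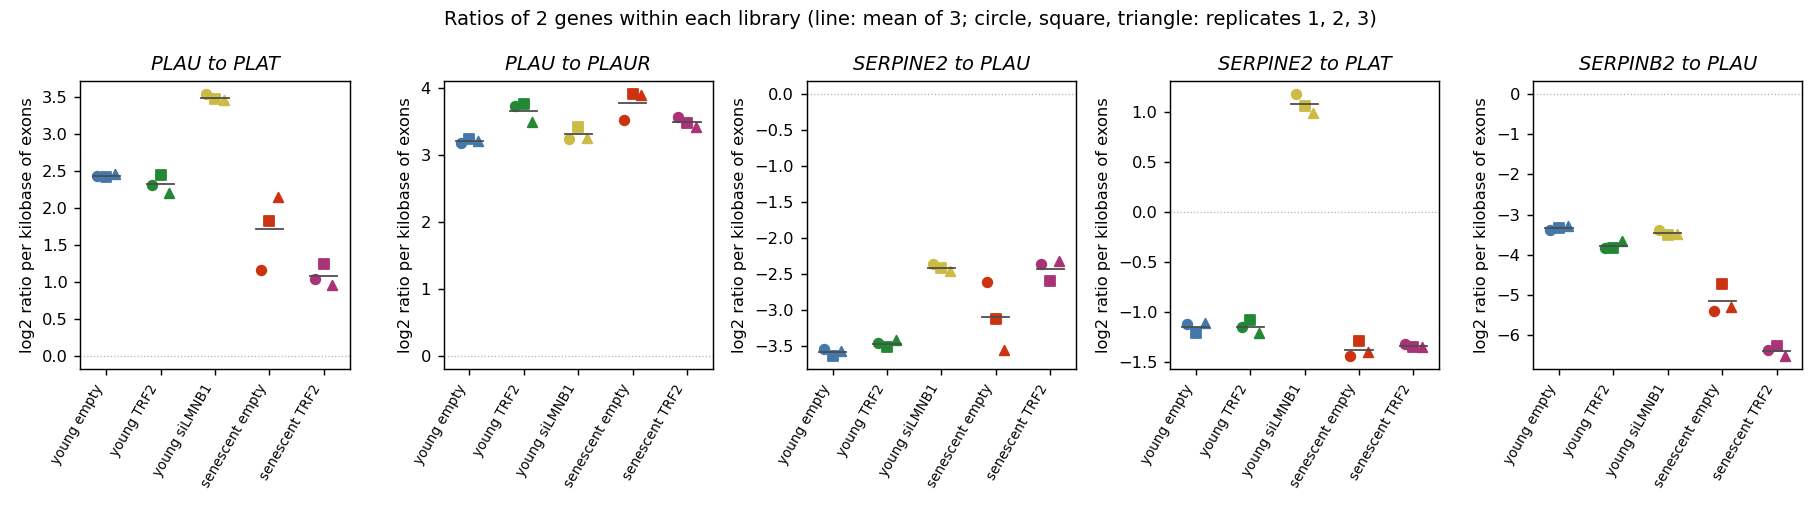
Log2 ratio of 2 genes per kilobase of exons in each of the 15 libraries, on a separate vertical axis for each pair. Points are libraries, their shape gives the replicate, and the line is the mean of 3. PLAU to PLAT is highest with siLMNB1 (3.45 to 3.53), SERPINE2 to PLAT is above 0 in the siLMNB1 libraries and below 0 in the others, and SERPINB2 to PLAU is lowest in senescent TRF2 cells (-6.52 to -6.28).

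The order of the genes by level per length depended on the condition. In young empty-vector cells PLAU at 228 RPKM was followed by PLAT at 42.2, PLAUR at 24.7 ± 0.643, SERPINB2 at 22.7 ± 1.50 and SERPINE2 at 19.1 ± 0.694 RPKM. In senescent TRF2 cells PLAU at 165 ± 6.42 RPKM was followed by PLAT at 78.0 ± 5.02, SERPINE2 at 30.8 ± 2.10, PLAUR at 14.7 ± 0.946 and SERPINB2 at 1.98 ± 0.232 RPKM. SERPINE2 was thus the lowest of the 5 in the first group, and SERPINB2 in the second. With the length of the longest transcript in place of all exons, PLAUR lay above SERPINE2 in young empty-vector cells (68.5 and 28.5 RPKM) and below it in senescent TRF2 cells (40.8 and 46.1 RPKM), as with the first length, while SERPINE2 and SERPINB2 were close in young cells (28.5 and 28.9 RPKM).

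Other genes of the plasminogen system were read from a list of 22, of which 15 were tested. Plasminogen itself (PLG) had at most 1 count in any library, the plasmin inhibitor gene SERPINF2 at most 3 and vitronectin (VTN) at most 11. In senescent empty-vector cells 7 of the 15 were called higher and 5 lower, where 32.7% of all genes were higher and 31.9% lower, with a median log2 change of -0.06 beside 0.02 over all genes. The integrin subunit gene ITGB3, whose product forms the vitronectin receptor, rose from 10.4 ± 0.828 to 71.2 ± 14.6 CPM (log2 2.78, adjusted p = 5.5e-11). SERPINI1, which encodes neuroserpin, an inhibitor of tPA, rose from 1.67 ± 0.326 to 11.5 ± 1.14 CPM (log2 2.79, adjusted p = 6.5e-10). A2M, which encodes the broad protease inhibitor alpha-2-macroglobulin, rose by 2.61 (adjusted p = 1.5e-08), and HGF, a growth factor activated by proteolytic cleavage, fell by 1.72 (adjusted p = 2.7e-05).

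Between the TRF2 groups the same list had 7 genes higher and 5 lower, where 28.2% of all genes were higher and 30.1% lower, with a median of 0.01 beside -0.02 over all genes. SERPINI1 rose by 2.52, A2M by 2.85 and ITGB3 by 2.05 on the log2 scale (adjusted p = 1.1e-09, 4.8e-09 and 1.6e-09). F12, which encodes coagulation factor XII, was called higher at very low levels (0.701 ± 0.0962 against 0.101 ± 0.0757 CPM, adjusted p = 3.2e-04). With siLMNB1, 2 genes were higher and 3 lower, where 16.4% and 16.1% of all genes were, with a median of 0.03 beside 0.04. The plasminogen-binding surface proteins ANXA2 and ENO1 fell by 0.65 and 0.52 (adjusted p = 1.6e-04 and 0.0015), and ITGB3 rose by 0.75 (adjusted p = 4.2e-04). VLDLR, an endocytic receptor that takes up protease and serpin complexes, rose by 0.36 (adjusted p = 0.049).

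With TRF2 in senescent cells, 2 genes of the plasminogen list were higher and 2 lower, where 4.87% of all genes were higher and 6.41% lower. LRP1, the large endocytic receptor that clears activators bound to serpins, rose from 1150 ± 383 to 2042 ± 201 CPM (log2 0.83, adjusted p = 0.0090), where replicate 3 with the empty vector, at 711 CPM, lay below the other 2 at 1416 and 1322 CPM, and VLDLR rose by 0.57 (adjusted p = 0.023). ITGB3 fell by 0.66 (adjusted p = 0.0034). The median of the list was 0.17 beside -0.02 over all genes. No gene of this list was called with TRF2 in young cells (3 higher and 2 lower at an unadjusted p under 0.05, 0 by DESeq2) or in the interaction of state and vector (2 higher and 2 lower at an unadjusted p under 0.05, 1 lower by DESeq2).

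The other serpins of the table numbered 33, of which 11 were tested, and 2 of these 11 also stand in the list above. In senescent empty-vector cells 4 were called higher and 5 lower, beside 32.7% and 31.9% of all genes, so that calls in both directions were common there. SERPING1, which encodes the C1 inhibitor, rose by 2.76 (adjusted p = 4.5e-08), and SERPINB9, which encodes the granzyme B inhibitor PI-9, fell by 3.17 (adjusted p = 1.2e-07). SERPIND1, which encodes heparin cofactor II, was called higher at very low levels (0.828 ± 0.462 against 0.119 ± 0.0536 CPM). Between the TRF2 groups 3 were higher and 5 lower, beside 28.2% and 30.1% of all genes. SERPING1 rose by 1.62, SERPINB9 fell by 2.64 and SERPINB7 fell by 1.69 (adjusted p = 1.4e-05, 3.4e-07 and 2.0e-10).

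With siLMNB1, 4 of the other serpins were higher and 1 lower, beside 16.4% and 16.1% of all genes, and none of these 4 was called higher in senescent empty-vector cells. SERPINB9 rose by 1.42, SERPINB1 by 0.61, SERPINH1 by 0.56 and SERPINB7 by 0.39 (adjusted p = 1.6e-04, 9.5e-04, 2.8e-04 and 0.0028). SERPINB9, SERPINH1 and SERPINB7 thus rose with siLMNB1 and fell in senescent cells. In senescent cells with TRF2, 1 was higher and 5 were lower, beside 4.87% and 6.41% of all genes. Among the 5 were SERPINB7 (-0.92, adjusted p = 6.4e-05), SERPING1 (-0.83, adjusted p = 0.020) and SERPINB8 (-0.38, adjusted p = 0.014). SERPIND1 was also called lower there, at 0.165 ± 0.0547 against 0.828 ± 0.462 CPM. In young cells with TRF2 the 1 call was SERPINB7, lower by 0.55 (adjusted p = 0.012). No other serpin was called in the interaction (4 lower and 0 higher at an unadjusted p under 0.05, 1 lower by DESeq2).

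Coagulation genes of the cell surface formed a list of 8 that were all tested. In senescence with the empty vector 1 was higher and 3 lower, beside 32.7% and 31.9% of all genes, and with TRF2 1 was higher and 4 lower, beside 28.2% and 30.1%. Thrombomodulin (THBD), a cofactor that turns thrombin toward protein C, rose from 0.608 ± 0.119 to 7.78 ± 3.54 CPM with the empty vector (log2 3.68, adjusted p = 1.1e-07). F2RL1 and F2RL2, receptors of the family of the thrombin receptor, fell by 1.13 and 1.09, and TFPI, an inhibitor of the tissue factor pathway, fell by 0.63 (adjusted p = 1.6e-05, 4.7e-04 and 1.6e-05). Between senescent and young cells with TRF2, on the log2 scale, THBD rose by 2.32, while TFPI2 fell by 1.39, F2RL2 by 0.94 and F2RL1 by 0.93 (adjusted p = 7.5e-06, 2.7e-07, 0.0017 and 1.1e-04). SiLMNB1 was accompanied by lower F2R, the main thrombin receptor (-0.85, adjusted p = 1.7e-04), and THBD was called lower at very few counts (0.0761 ± 0.0513 CPM). TFPI2, which encodes an inhibitor of plasmin and the tissue factor complex, fell by 1.33 with TRF2 in senescent cells (adjusted p = 7.2e-05), from 227 ± 51.1 to 90.4 ± 3.69 CPM, and was the 1 gene of this list called there. No gene of the list was called with TRF2 in young cells (3 higher at an unadjusted p under 0.05, 0 by DESeq2).

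**Figure D4:**
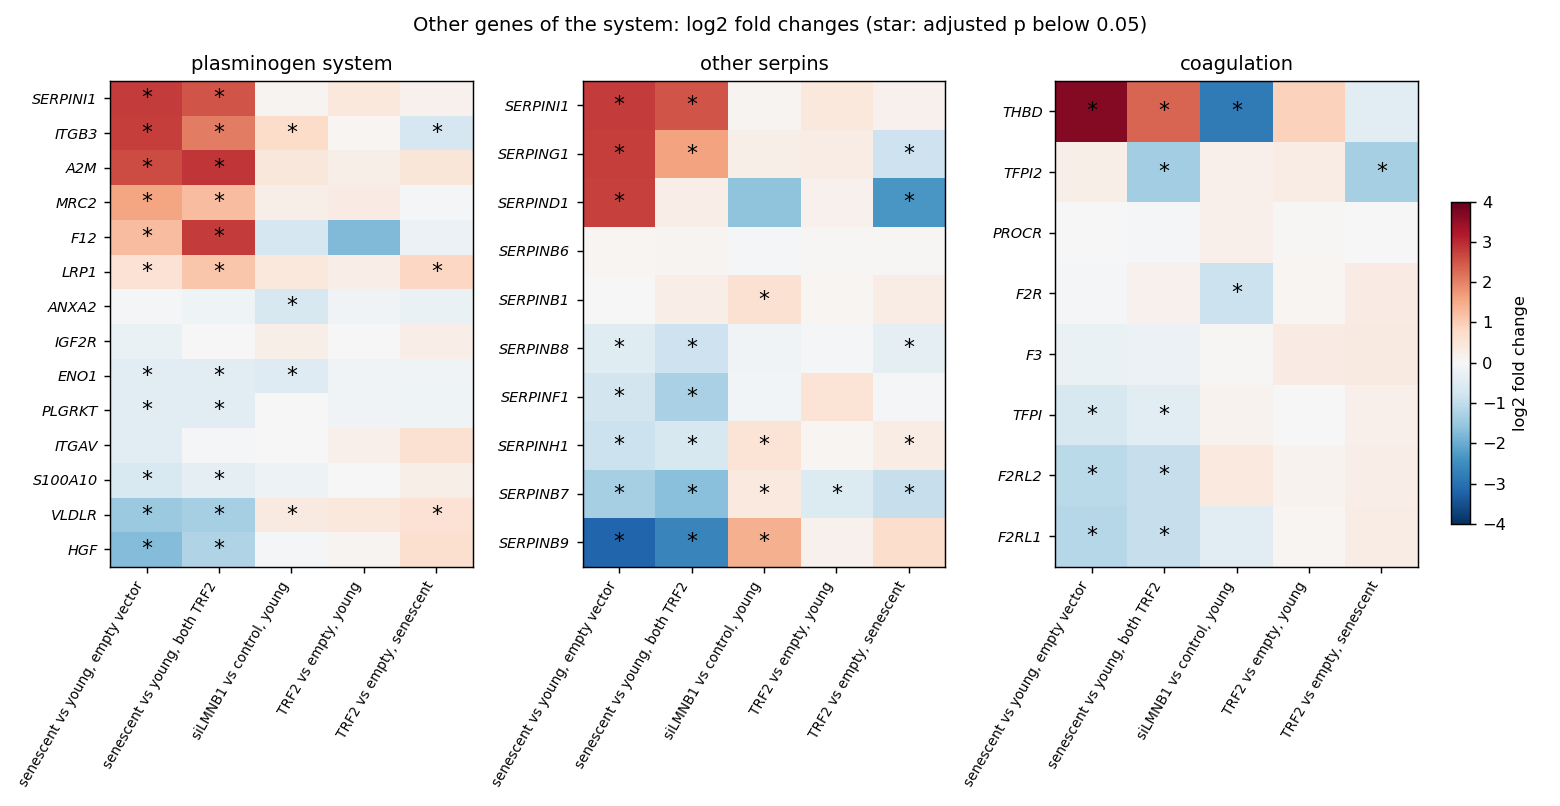
Log2 fold changes of tested genes from 3 lists, other genes of the plasminogen system, other serpins and coagulation genes of the cell surface, in the 5 comparisons. Red is higher, blue is lower, and a star marks an adjusted p below 0.05. SERPINB9 is among the most lowered genes in both senescent comparisons (-3.17 and -2.64) and raised with siLMNB1 (1.42), and ITGB3 is raised in these 3 comparisons.

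The nearest genes on the chromosomes were read beside the members. SERPINB7, which ends 66316 bases below SERPINB2 in a cluster of serpin genes, fell in both senescent comparisons (-1.32 and -1.69, adjusted p = 3.4e-09 and 2.0e-10) and with TRF2 in senescent cells, as SERPINB2 did, but rose with siLMNB1. HMSD, the next gene above, held at most 63 counts and fell in both senescent comparisons (-2.09 and -2.33). Of the neighbours of PLAT, AP3M2 differed by 0.02 in senescent empty-vector cells (adjusted p = 0.87) and fell by 0.57 with siLMNB1 (adjusted p = 0.0011), while IKBKB rose by 0.86 and did not pass with siLMNB1 (-0.01, adjusted p = 0.93). The neighbours of PLAUR, CADM4 and SMG9, rose by 2.80 and 0.61 in senescent empty-vector cells, where PLAUR differed by -0.06. CAMK2G, below PLAU, rose by 0.76 in that comparison, and VCL, above it, differed by -0.26 (adjusted p = 0.26). MRPL44 and CUL3, beside SERPINE2, were at -0.13 (adjusted p = 0.21) and -0.52 (adjusted p = 3.7e-04) there.

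The genes with the most similar patterns were found by Pearson's r of log2 CPM over the 15 libraries among all tested protein-coding genes, as a description. The points share their library and depth and fall into the 5 conditions, so r mostly reads the order of the conditions. Closest to PLAU were AREG (r = 0.949), which encodes the growth factor amphiregulin, IFI6 (0.923) and CAMK1G (0.915). Closest to PLAT were SPHK2 (0.989), MACROH2A1 (0.986) and TRIOBP (0.986), and among the closest to PLAUR were TOMM34 (0.954) and E2F1 (0.953). TAF8 (0.945), ALAS1 (0.940) and ZNF839 (0.934) were closest to SERPINE2, and STEAP1 (0.993), SLC43A3 (0.983) and ASF1B (0.979) to SERPINB2. Among the members themselves, the highest r was 0.835 between PLAU and PLAUR, followed by 0.763 between PLAUR and SERPINB2, and the lowest was -0.481 between PLAT and SERPINB2.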

How the data were processed

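RNA-seq counts of 15 MRC-5 libraries were used. The submitters' processing notes name Trimmomatic, STAR, DESeq2 and the build GRCh38. The authors deposited raw counts of reads per gene, not normalized. The annotation release and strand setting of the counting are not given in the sources used here. Columns were assigned by name, and no library pair was identical (0 pairs). Genes were named with GENCODE 44; the 324 genes absent from it held 0.0563% of counts.

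After filterByExpr and TMM normalization, 1 edgeR 4.0.16 model (limma 3.58.1, R 4.3.3) with a mean for each of 5 conditions was fitted to the counts. Contrasts were tested by quasi-likelihood with Benjamini-Hochberg correction over 15799 genes at 0.05. CPM and RPKM are TMM-scaled, RPKM by union exon length, and log2 CPM used a prior count of 1. From 3 further lists, up to 4 called genes per comparison with the largest changes among groups that did not overlap were named, as well as the nearest genes and the 3 genes most alike in pattern. Of these, 2 genes are not reported here by name; 1 of them is still included in the counts and medians of its lists and left out of their plot. The members and lists were chosen with earlier results of these data known. Depth was 26725885 to 43116046 counts, and 3 libraries a condition limit the precision.

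Alternatives were DESeq2 1.42.0, no low-count filter, only the libraries compared, a replicate block, offsets for GC content (loess span 0.3) and length, both together, each library left out, the longest transcript's length and Spearman's rho. On simulated data for senescent against young cells with the empty vector, 71.5% of 200 genes changed by 1 (log2) were recovered, with 14 false calls among 15359 genes. Only these 200 genes were changed, whereas 10217 were called in the data. The simulation had no dependence on GC content and the same spread of a gene in every condition. Its recovery is therefore not that of the data. Python 3.11.15, numpy 2.4.6, pandas 2.3.3 and matplotlib 3.10.9 served for tables and figures.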

Additional observations from a re-analysis of the deposited data

Results flagged for a closer look

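The change with senescence differed between TRF2 and the empty vector, by the test of the interaction itself in edgeR, for 4 of the 5 genes and for 1 gene of the coagulation list. The log2 change with TRF2 minus that with the empty vector was -1.32 for PLAU, -0.72 for PLAT, -0.68 for SERPINE2 and -2.17 for SERPINB2. With only the libraries compared these 4 calls were lost (adjusted p of 0.053 to 0.079). For TFPI2 it was -1.63 (SE 0.19, adjusted p = 0.0039). TFPI2 was at 168, 254 and 258 CPM in senescent cells with the empty vector and at 94.6, 88.3 and 88.2 CPM with TRF2, while young TRF2 libraries held 223 to 263 CPM and young libraries with the empty vector 186 to 202 CPM. In senescent cells the groups differ also in PD, 71 with the empty vector and 75 with TRF2, which cannot be told apart from the vector. Young and senescent TRF2 cells differ also in how long TRF2 was expressed, which cannot be told apart from state.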

How the results depend on the processing

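The 5 genes in 6 contrasts gave 30 results. DESeq2 left 27 of them on their side of the threshold, the fit without a filter 24, the offsets 27 and the fit of only the libraries compared 16. The replicate block kept all 30, for example PLAU at 0.53 between senescent and young empty-vector cells. Correlations of the deviations of libraries with the same number lay between -0.0945 and 0.0615, so no shared deviation was seen. The labels do not say whether libraries with the same number shared a culture or batch.

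DESeq2 added calls for TRF2 in young cells (PLAT 0.39, SERPINE2 0.39) and for SERPINE2 with TRF2 in senescent cells (-0.27). Without the filter, calls were added for PLAU and SERPINB2 with siLMNB1 (-0.32 and -0.45), PLAT and SERPINE2 with TRF2 in young cells (0.41 and 0.41) and the PLAUR interaction (-0.52), and PLAT with TRF2 in senescent cells was lost (-0.30). Offsets for length and GC content ended the PLAU call in senescence with the empty vector (0.32, and 0.31 with the replicate block), and added PLAU with siLMNB1 (-0.42, also with the block) and SERPINE2 with TRF2 in senescent cells (-0.36, also with the block). The replicate block with offsets also added PLAUR in senescence (-0.27). With only the libraries compared, calls were added for PLAU and SERPINB2 with siLMNB1 (-0.32 and -0.45) and for PLAU, PLAT and SERPINE2 with TRF2 in young cells (0.29, 0.41 and 0.41). That fit lost PLAU in senescence with the empty vector (0.54), PLAU, PLAT, PLAUR and SERPINB2 with TRF2 in senescent cells (-1.01, -0.30, -0.68 and -2.31) and the 4 interactions (PLAU -1.32, PLAT -0.73, SERPINE2 -0.69 and SERPINB2 -2.17). The cause of these changes was not tested.

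When 1 library was left out, 170 of 210 values stayed on their side, 36 lost their call, 3 gained one and 1 changed sign. In senescence with the empty vector the ranges were 0.24 to 0.82 for PLAU and -0.31 to 0.13 for PLAUR, and for SERPINE2 between the TRF2 groups 0.24 to 0.33. With siLMNB1 PLAUR ranged from -0.44 to -0.39. With TRF2 in senescent cells the ranges were -0.37 to -0.25 for PLAT and -0.36 to -0.22 for SERPINE2. Interactions ranged from -1.58 to -1.001 for PLAU, -0.78 to -0.64 for PLAT, -0.72 to -0.27 for PLAUR, -0.77 to -0.61 for SERPINE2 and -2.50 to -1.90 for SERPINB2.

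Over all genes, the 28 calls for TRF2 in young cells became 138 with DESeq2, 256 without the filter, 474 with only the libraries compared and 1 to 18 with 1 library left out. The 1782 calls for TRF2 in senescent cells became 2 with only the libraries compared and 722 to 4411 with 1 left out. The 179 interaction calls became 486, 955 and 8 in those 3 fits, 336 with the offsets and 6 to 2089 with 1 left out, and the 5137 calls with siLMNB1 became 8019 with only the libraries compared. With that fit no gene of the 3 lists was called with TRF2 in senescent cells. Of the 5 plasminogen genes lower between the TRF2 groups, 3 stayed lower with the offsets. By the longest transcript, PLAT was at 94.8 RPKM in young empty-vector cells in place of 42.2. By Spearman's rho, 1 of the 3 genes most like PLAUR and 1 most like SERPINE2 stayed among the closest 3, and 0 for the other members. SERPINB2 in senescent TRF2 cells, at 168 counts or more, had the least depth.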
